A study of Mus musculus with 24 samples.

Results

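The wild-type (WT) maternal-fetal interface (MFI) at gd14.5 (gd for gestation day) was compared with the WT interface at gd10.5. The 6 libraries used, 3 per stage, were those whose count-table columns carry the WT label at these stages, out of 24 libraries in all, which also cover gd16.5, gd19.5 and mice without C1qtnf6 (C1qtnf6-KO, abbreviated KO) at each of the 4 stages. C1qtnf6 encodes CTRP6, a secreted protein of the C1q/TNF-related family, and was intact in the libraries compared. The mice were of the C57BL/6 strain, the day of the vaginal plug counts as day 0.5 after the study's methods, and no group received a treatment. The labels give the tissue only as maternal-fetal interface, and name no dam, litter, sex or pooling, so that each p-value measures the spread between these libraries, which may in part be technical.

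The mouse MFI is built from maternal and fetal layers. On the maternal side lies the decidua, the endometrial stroma transformed under progesterone, which in early pregnancy is rich in decidual natural killer (NK) cells that carry perforin and granzymes. On the fetal side, trophoblast giant cells border the decidua and secrete placental lactogens, the junctional zone holds spongiotrophoblast and glycogen trophoblast, and the labyrinth is the site of exchange between maternal and fetal blood. Around mid-gestation the chorioallantoic placenta forms and expands, the decidua thins, and fetal erythropoiesis passes from primitive cells of the yolk sac to definitive cells of the liver.

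Reads assigned to genes were 26497353, 34006585 and 20975717 in the gd10.5 libraries and 36378830, 35579180 and 23520602 in the gd14.5 libraries. Levels are given as CPM, the usual scaling of counts to the normalised library size, in the order of replicates 1, 2 and 3, and they are not divided by gene length, so that a level is compared between stages and not between genes. A gene was called when its Benjamini-Hochberg adjusted p was under 0.05 and its absolute log2 fold change was over 1, with positive values higher at gd14.5. The gd14.5 libraries were closer to each other (Pearson r of log2 CPM 0.993 to 0.994) than the gd10.5 libraries (0.981 to 0.989), and r between stages was 0.923 to 0.939. WT gd10.5 replicate 1 stood apart from the other WT libraries of both stages for genes of the yolk sac endoderm. WT gd14.5 replicate 3 was the only library of the 6 with Y-linked transcripts above 1.37 CPM in sum, scaled over all 24 libraries. Both are taken up beside the results they touch.

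Of 55401 genes in the table, 18110 were tested. At gd14.5, 1825 genes were higher (10.1% of those tested) and 2127 were lower (11.7%). These percentages are the background for every list below. Libraries that do not overlap between stages were frequent. Over all genes tested, the gd14.5 libraries lay wholly above those of gd10.5 in 32.2% and wholly below in 31.9%. The changes were often large, with 609 genes higher and 646 lower by more than 2 on the log2 scale, and 57 higher and 36 lower by more than 5. With library totals alone in place of TMM factors the median over all genes moved from -0.0031 to -0.14, with 1557 called higher and 2486 lower. Shares differed by expression level. Among the 82 genes tested with a mean over 1000 CPM, 33 were called higher (40.2%) and 9 lower (11%), whereas of the 5087 genes between 1 and 10 CPM, 642 were called higher (12.6%) and 864 lower (17%). The 12 largest rises among abundant genes were Prl8a8, Ceacam12, Psg-ps1, Psg23, Psg21, Psg16, Psg26, Psg28, Ceacam14, Cts6, Cts3 and Fbln7, which apart from Fbln7, a fibulin of the extracellular matrix, belong to the placental prolactin, Psg/Ceacam and cathepsin families. The 12 largest falls were Prl3d1, Prl3d2, Hbb-bh1, Tac2, Bco1, Akr1c18, Hsd3b6, Prps2, Tdo2, Ceacam9, Doxl1 and Prl7a1, among them giant cell hormones, an embryonic globin and enzymes of steroid and tryptophan metabolism.

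**Figure D1:**
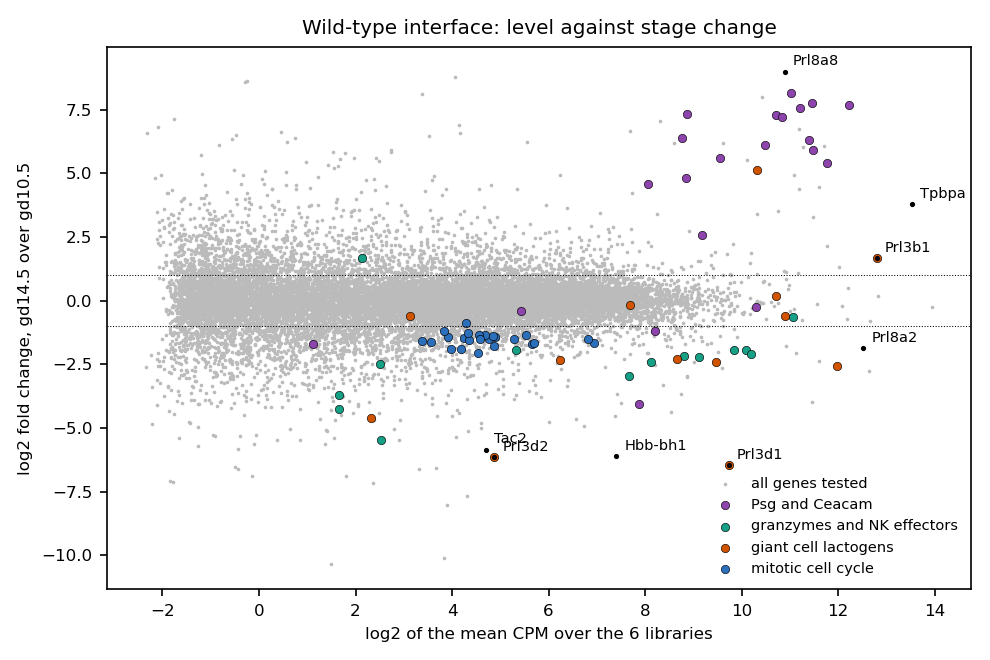
Each point is 1 of the 18110 genes tested, with the log2 of its mean CPM on the x axis and its log2 fold change (gd14.5 over gd10.5) on the y axis; dotted lines mark changes of 1 and -1. Psg and Ceacam genes reach high levels with positive changes, while granzymes and mitotic genes lie almost wholly below 0.

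The upstream sequences of 6 genes are shown here, because they stand for the trophoblast and globin genes with the changes described next. Prl3d1 and Prl3b1 are the giant cell lactogens lost and gained, Tpbpa and Ctsq mark junctional zone and giant cell types that gained transcripts, and Hba-x and Hba-a1 are the embryonic and adult alpha-like globins. Each is the stretch of 250 bases before the RefSeq start (build GRCm38.p6), written 5′ to 3′ on the gene's strand, and the capitals mark, on either strand, the letters GATAA of GATA factors, the letters TGANTCA of AP-1, the CCAAT box, the letters CCACCC of Krüppel-like factors and the letters TATAA of the core promoter. No match overlapped another.
Prl3d1 (chr13:27093939-27094188, plus strand): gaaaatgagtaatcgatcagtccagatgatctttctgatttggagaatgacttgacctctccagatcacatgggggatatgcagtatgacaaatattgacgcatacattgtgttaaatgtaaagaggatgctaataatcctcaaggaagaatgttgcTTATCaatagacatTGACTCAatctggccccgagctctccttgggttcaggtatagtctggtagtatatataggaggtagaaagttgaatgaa
Prl3b1 (chr13:27242180-27242429, plus strand): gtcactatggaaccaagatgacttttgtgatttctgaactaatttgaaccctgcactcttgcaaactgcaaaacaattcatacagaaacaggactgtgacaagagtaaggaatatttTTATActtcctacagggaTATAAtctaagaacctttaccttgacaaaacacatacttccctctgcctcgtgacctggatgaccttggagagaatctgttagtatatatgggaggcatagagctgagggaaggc
Tpbpa (chr13:60941937-60942186, minus strand): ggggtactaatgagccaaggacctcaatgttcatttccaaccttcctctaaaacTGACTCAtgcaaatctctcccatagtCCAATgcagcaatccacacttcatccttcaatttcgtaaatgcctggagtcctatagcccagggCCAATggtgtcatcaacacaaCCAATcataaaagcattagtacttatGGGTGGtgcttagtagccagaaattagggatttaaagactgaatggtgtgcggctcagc
Ctsq (chr13:61040598-61040847, minus strand): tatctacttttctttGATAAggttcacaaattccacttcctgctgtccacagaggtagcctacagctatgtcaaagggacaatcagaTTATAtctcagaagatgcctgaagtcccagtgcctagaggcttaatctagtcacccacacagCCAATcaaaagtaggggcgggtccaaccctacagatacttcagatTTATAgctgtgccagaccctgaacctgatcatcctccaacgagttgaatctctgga
Hba-x (chr11:32276350-32276599, plus strand): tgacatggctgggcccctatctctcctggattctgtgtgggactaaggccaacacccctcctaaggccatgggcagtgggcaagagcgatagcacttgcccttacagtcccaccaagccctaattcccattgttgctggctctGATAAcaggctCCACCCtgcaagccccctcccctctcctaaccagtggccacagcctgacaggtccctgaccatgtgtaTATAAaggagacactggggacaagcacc
Hba-a1 (chr11:32283422-32283671, plus strand): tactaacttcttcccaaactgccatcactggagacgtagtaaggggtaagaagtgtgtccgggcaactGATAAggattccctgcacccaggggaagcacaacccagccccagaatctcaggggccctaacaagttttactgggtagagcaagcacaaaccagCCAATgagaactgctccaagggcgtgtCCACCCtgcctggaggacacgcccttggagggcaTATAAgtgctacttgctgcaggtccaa
Over 32817 such windows, GATAA was present in 22.6%, TGANTCA in 6.75%, CCAAT in 33.8%, CCACCC in 28.1% and TATAA in 22.8%. The AP-1 letters TGANTCA occurred in the windows of Prl3d1, which fell, and Tpbpa, which rose. The globin windows both held the letters of GATA factors, Krüppel-like factors and the core promoter, and the CCAAT box was found in that of Hba-a1 alone of the pair, ending 84 bases before the start. These matches are a description of the letters and not of binding.

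The placental lactogens, hormones of giant cells that act on the maternal prolactin receptor, moved in opposite directions. Prl3d1, placental lactogen I, read 2072, 1417 and 1552 CPM at gd10.5 and 20.4, 15.8 and 21.4 CPM at gd14.5. The groups were far apart, and Prl3d1 was 87.5-fold lower at gd14.5 (log2 fold change -6.45, SE 0.21, adjusted p = 4.32e-07). Prl3b1, placental lactogen II, read 3843, 3755 and 2682 CPM at gd10.5 and 10979, 10401 and 11006 CPM at gd14.5, and was 3.15-fold higher (log2 fold change 1.66, SE 0.15, adjusted p = 5.36e-05). Every gd14.5 library thus lay below every gd10.5 library for the first hormone and above for the second. Prl3d2, a near copy of Prl3d1, fell from 65.9, 47.3 and 60.0 CPM to 0.765, 0.712 and 1.04 CPM (log2 fold change -6.13, SE 0.19, adjusted p = 3.48e-07). The proliferins Prl2c2 and Prl2c3, relatives of the lactogens that act on blood vessels, also fell, Prl2c3 from 8374, 6762 and 5486 CPM to 1176, 1012 and 1310.3 CPM (log2 fold change -2.56, SE 0.18, adjusted p = 1.61e-05). Of the 13 tested members of the giant cell list, 7 were called lower and 2 higher, with a median log2 fold change of -2.29. The transcripts of Prl3d1 and Prl3d2 are each 98.5% identical to Prl3d3, and those of Prl2c2 and Prl2c3 are 99.5% identical, over 842 bases or more. Since the counting left out reads with several alignments, the division of reads within these groups is uncertain. In bulk tissue, fewer cells of a type and less RNA per cell cannot be told apart, here and in what follows.

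The prolactin family as a whole moved both ways. Of its 24 members in the lists, all tested, 9 were called higher and 9 lower. Prl8a8 had the largest rise of any gene over 50 CPM, from 11.3, 6.3 and 4.71 CPM to 3922, 3673 and 3779.9 CPM (log2 fold change 8.99, SE 0.34, adjusted p = 9.72e-07). Its neighbours on chromosome 13 rose with it, and a run of 5 consecutive tested genes (Prl2b1, Prl8a6, Prl8a8, Prl8a9 and Prl8a1, chromosome 13, 27383339 to 27582171, GRCm38) was called higher. Prl8a9 went from 290.4, 288 and 230.3 CPM to 5778, 5713 and 6320.4 CPM, and Prl2b1 from 515, 554 and 514 CPM to 4710.5, 5243 and 5519.7 CPM. A pair with similar names went opposite ways. Prl7a2 rose from 76.9, 90.9 and 58.7 CPM to 5163, 4722 and 4764 CPM (log2 fold change 6.01, SE 0.19, adjusted p = 3.81e-07). Prl7a1 fell from 6645, 5074 and 4227 CPM to 344, 266 and 389 CPM (log2 fold change -4.00, SE 0.22, adjusted p = 5.28e-06). Both are written as junctional zone hormones in the list, and their libraries did not overlap between stages in either direction.

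The junctional zone list, spongiotrophoblast and glycogen cell genes, had 13 of 22 tested members called higher and 2 lower, with a median log2 fold change of 2.15. Its defining marker Tpbpa, the trophoblast specific protein alpha, read 1241, 1672 and 1859.5 CPM at gd10.5 and 21712, 21118 and 23044 CPM at gd14.5 (log2 fold change 3.79, SE 0.17, adjusted p = 2.32e-06). Tpbpb, its neighbour in sequence and position, rose from 91.4, 102 and 98.6 CPM to 6246, 6679 and 6914 CPM (log2 fold change 6.09, SE 0.12, adjusted p = 4.09e-08). Pcdh12, a protocadherin of glycogen trophoblast, rose less, from 44.4, 47.2 and 58.9 CPM to 140.2, 174 and 166 CPM (log2 fold change 1.68, SE 0.13, adjusted p = 2.31e-05). The summed level of the list was 10900, 10100 and 9010 CPM at gd10.5 and 51100, 51300 and 54800 CPM at gd14.5. In contrast, none of the 14 tested genes of glycogen synthesis and breakdown was called, among them the glycogen synthase Gys1, the branching enzyme Gbe1 and Ugp2. Igf2, the growth factor of the fetal placenta, read 26.7, 18.4 and 32.7 CPM at gd10.5 and 43.6, 45.1 and 43.1 CPM at gd14.5 (log2 fold change 0.77, SE 0.18, adjusted p = 0.0063) and was not called. Of its exonic bases 64.5% lie in exons of other annotated genes, where the default counting discards reads.

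Pregnancy-specific glycoproteins (Psg) and placental Ceacam genes, secreted or membrane immunoglobulin-like proteins of trophoblast, had the highest median change of the lists. Of 21 tested members, 16 were called higher and 3 lower, with a median log2 fold change of 5.93. Psg21 went from 54.2, 45.3 and 40.0 CPM to 8505, 10042 and 10159.5 CPM (log2 fold change 7.68, SE 0.18, adjusted p = 7.06e-08). Psg16 went from 32.8, 22.8 and 19.7 CPM to 4163, 5497 and 4516 CPM (log2 fold change 7.56, SE 0.25, adjusted p = 4.82e-07). Ceacam12 rose from 17.9, 15.7 and 9.51 CPM to 4142, 4253 and 4048 CPM (log2 fold change 8.17, SE 0.26, adjusted p = 4.32e-07). In sum the list held 3270, 2810 and 3100 CPM at gd10.5 and 54100, 61400 and 60400 CPM at gd14.5, a fold of 19.2 between the means. The exceptions were Ceacam9, Psg20 and Psg22. Ceacam9 fell from 423, 394 and 519.7 CPM to 32.6, 20.5 and 26.2 CPM (log2 fold change -4.07, SE 0.19, adjusted p = 2.73e-06), and Psg22 from 475, 378 and 382 CPM to 169.9, 163 and 202 CPM. The largest unbroken run of called genes in the genome lay here, with 20 neighbouring tested genes all higher on chromosome 7, from 17672292 to 18656725. Psg21 and Psg23 are 97% identical over 1756 bases, and Psg26 and Psg28 are 95.7% identical over 1667 bases, so that levels within these pairs are less certain than their sum.

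Placental cathepsins, cysteine proteases that expanded in rodents, had 6 of 9 tested members called higher and 1 lower. Ctsq, a marker of sinusoidal giant cells in the labyrinth, went from 54.5, 75.1 and 83.2 CPM to 2172, 2613 and 2647 CPM (log2 fold change 5.13, SE 0.19, adjusted p = 7.82e-07). Cts6 rose from 6.33, 4.21 and 3.78 CPM to 502, 693 and 697 CPM (log2 fold change 7.04, SE 0.24, adjusted p = 5.39e-07), and Cts3 from 42.6, 44.8 and 41.3 CPM to 4670.0, 4670.4 and 4446 CPM. Ctsj was already abundant and rose by 2.47-fold, from 2169, 2539.5 and 2426 CPM to 5622, 5792 and 6234 CPM. Only Cts7 was called lower in this list, from 25.9, 15.9 and 17.4 CPM to 0.113, 0.237 and 0.27 CPM (log2 fold change -6.60, SE 0.32, adjusted p = 3.39e-06). Another run of neighbours called higher joined this family to the junctional zone, with Tpbpa, Gm40975, Ctsj, Ctsq, Ctsr and Cts6 on chromosome 13 between 60938492 and 61203410.

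**Figure D2:**
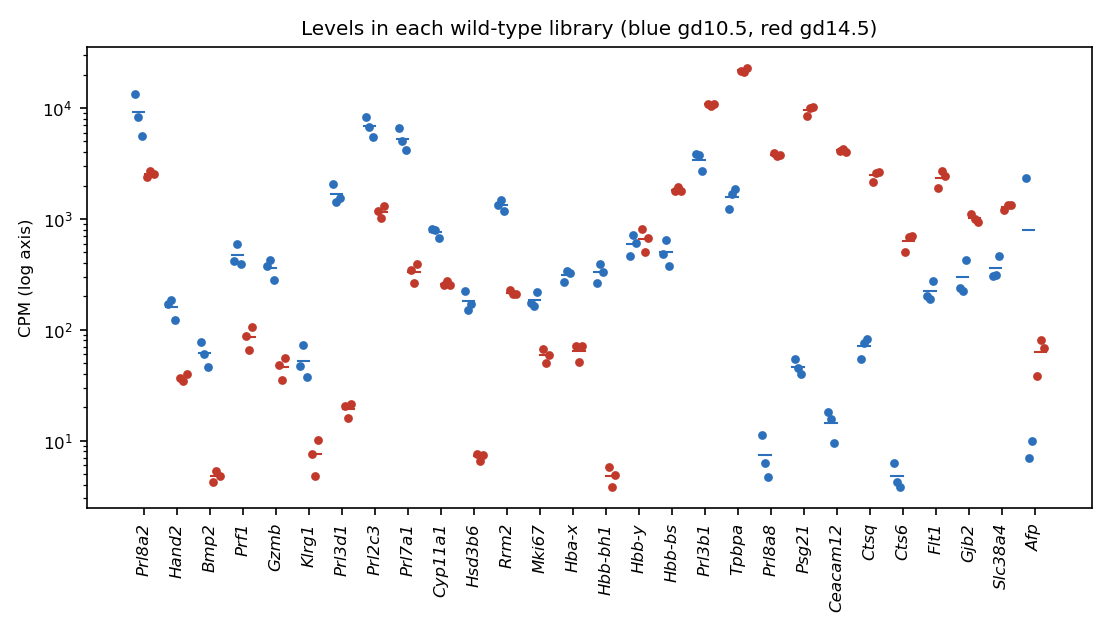
CPM (log axis) of 28 genes in each of the 6 WT libraries, with gd10.5 in blue, gd14.5 in red and a short line at each mean of 3. The stages separate for all genes drawn but Hbb-y and Afp, while over all genes tested 32.2% separate upward and 31.9% downward. For Afp, WT gd10.5 replicate 1 lies at 2364 CPM and the other gd10.5 libraries at 6.98 and 9.91 CPM.

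Of the labyrinth and syncytiotrophoblast genes, 8 of 15 tested members were called higher and 1 lower. Gcm1, the transcription factor that starts branching of the labyrinth, went from 5.74, 6.3 and 9.51 CPM to 36.6, 28.5 and 32.2 CPM (log2 fold change 2.18, SE 0.19, adjusted p = 4.50e-05). Syna, an endogenous retroviral envelope protein that fuses syncytiotrophoblast layer I, went from 28.6, 27 and 52.6 CPM to 100.1, 99.7 and 87.6 CPM (log2 fold change 1.42, SE 0.23, adjusted p = 0.00112). For both genes WT gd10.5 replicate 3 was the highest library of its stage and still lay below every gd14.5 library. Gjb2, the connexin joining both layers, went from 236, 225 and 429 CPM to 1105, 1004 and 948 CPM (log2 fold change 1.78, SE 0.24, adjusted p = 0.000368). The related Synb was listed at or near 0 in all 6 libraries and was not tested, and its longest transcript is identical to another annotated gene over 3017 bases, and reads with several alignments were not counted. Met, the receptor of hepatocyte growth factor, was the exception and fell from 13.4, 16.6 and 17.5 CPM to 7.34, 6.88 and 7.21 CPM (log2 fold change -1.15, SE 0.13, adjusted p = 0.000146).

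Transporters that carry nutrients across the labyrinth were called higher in larger shares than the 10.1% of all genes. Among 21 tested carriers of glucose and amino acids, 7 were called higher and 1 lower. Slc2a1, the glucose transporter GLUT1, rose from 381, 316 and 493 CPM to 923, 1049 and 939 CPM (log2 fold change 1.29, SE 0.16, adjusted p = 0.000224). Slc38a4, an imprinted system A amino acid carrier, rose from 306, 313 and 464 CPM to 1208, 1347 and 1324 CPM (log2 fold change 1.84, SE 0.16, adjusted p = 5.17e-05). The largest rise of the list was that of Slc1a1, a glutamate carrier, from 2.21, 2.03 and 3.78 CPM to 24.6, 25 and 24.1 CPM, although 31.9% of its exonic bases overlap another gene on the opposite strand. For iron, calcium and vitamins, 8 of 23 were called higher and 1 lower, with ferroportin Slc40a1 going from 87.6, 67.2 and 94.9 CPM to 329, 304 and 294 CPM (log2 fold change 1.89, SE 0.13, adjusted p = 1.46e-05). The transferrin receptor Tfrc was variable at gd14.5, with 2214, 903 and 2001 CPM against 542, 518 and 798 CPM at gd10.5 (log2 fold change 1.46, SE 0.32, adjusted p = 0.00486). Fatty acid genes had 6 of 23 called higher and 2 lower. Cd36, a fatty acid receptor, rose from 15, 17.7 and 17.4 CPM to 115, 99.9 and 103 CPM (log2 fold change 2.66, SE 0.094, adjusted p = 6.34e-07), and the carrier Fabp3 from 41.2, 44.1 and 60.4 CPM to 209.8, 195 and 184 CPM. Of 19 ABC and organic ion transporters, 6 were called higher and 1 lower, among them Abcb1a and Abcb1b, the drug efflux pumps, each 2.35-fold higher.

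Trophoblast stem cell factors split. Eomes, a T-box factor of stem cells, which is also expressed by NK cells, fell from 36.2, 38.6 and 30.4 CPM to 4.65, 3.32 and 5.45 CPM (log2 fold change -2.98, SE 0.18, adjusted p = 8.47e-06). Esrrb, an orphan nuclear receptor, fell from 20.4, 14.6 and 21.2 CPM to 5.01, 6.05 and 6.53 CPM (log2 fold change -1.68, SE 0.17, adjusted p = 9.87e-05). Cdx2, the caudal factor that defines trophectoderm, moved the other way, from 6.47, 7.29 and 13 CPM to 21.5, 27.7 and 29.8 CPM (log2 fold change 1.57, SE 0.25, adjusted p = 0.000998). In all, 4 of the 16 tested genes were called higher and 3 lower.

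Of 20 tested members of the decidual list, 11 were called lower and 2 higher, with a median log2 fold change of -1.02. Prl8a2, decidual prolactin-related protein, read 13528, 8267 and 5648 CPM at gd10.5 and 2377, 2701 and 2521 CPM at gd14.5 (log2 fold change -1.85, SE 0.28, adjusted p = 0.000727), and the gd10.5 libraries were spread more widely than those at gd14.5. Hand2, the progesterone-induced factor of decidual stroma, fell from 172, 187 and 122 CPM to 36.9, 34.6 and 40.1 CPM (log2 fold change -2.11, SE 0.15, adjusted p = 2.01e-05). Bmp2, the growth factor that drives decidualization, had the largest fall of the list, from 77.7, 60.9 and 45.7 CPM to 4.25, 5.28 and 4.82 CPM (log2 fold change -3.68, SE 0.20, adjusted p = 5.69e-06). Dio3, a thyroid hormone deiodinase, fell from 174, 145 and 138 CPM to 24.5, 9.49 and 10.4 CPM. Prl3c1 was an exception and rose from 15.7, 14.4 and 6.58 CPM to 46.4, 54.7 and 44 CPM (log2 fold change 1.97, SE 0.27, adjusted p = 0.000405). Outside the list, the largest falls included Tdo2, tryptophan dioxygenase, from 698, 958 and 479 CPM to 33.9, 33.4 and 36.3 CPM, and Tac2, the precursor of neurokinin B, from 56.2, 64.3 and 32.6 CPM to 0.878, 0.801 and 0.991 CPM. The keratin gene Krt84 had 548 to 1245 counts in the gd10.5 libraries and 0 or 1 at gd14.5, and was at least 276-fold lower when each gd14.5 library was set at a floor of 3 counts.

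Of 22 tested Hox genes, which pattern the body axis and the uterus, 10 were called lower and 4 higher. Hoxa10 and Hoxa11, which the uterine stroma needs for implantation, fell from 200.4, 262 and 181 CPM to 94.5, 95.7 and 89.4 CPM and from 106, 136 and 91.6 CPM to 39, 36.6 and 36.6 CPM (log2 fold change -1.57, SE 0.14, adjusted p = 4.48e-05). Of the exonic bases of Hoxa11, 35% lie in exons of its antisense partner, and the counting did not use strand. Hoxd10 read 43 ± 13.1 CPM at gd10.5 and 10.2 ± 0.253 CPM at gd14.5 (mean ± SD, n = 3) and fell, whereas Hoxa13 and Hoxd13, the last genes of both clusters, were called higher (log2 fold changes 1.94 and 1.45). Neighbouring genes of both clusters formed runs of falls, Hoxa9 to Hoxa11 on chromosome 6 from 52223100 to 52249799 and Hoxd9 to Hoxd11 on chromosome 2 from 74679557 to 74700208.

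NK cell genes were lower in nearly every case. Of 15 tested receptors and identity genes, 13 were called lower and 1 higher, with a median log2 fold change of -2.29. Setting the 3 members at the floor at gd14.5 to their bounds could not move this median, because all 3 bounds lay beyond it. Ncr1, the activating receptor NKp46, read 5.04, 3.48 and 2.13 CPM at gd10.5 and 0.0567, 0.089 and 0.0901 CPM at gd14.5, at least 34.4-fold lower against the floor of 3 counts. Klrb1c, which encodes NK1.1, was at least 18.1-fold lower on the same basis. Il2rb, a receptor chain for interleukins 2 and 15, had the highest CPM of the list and fell from 219, 224 and 177 CPM to 84.7, 87.7 and 97.1 CPM (log2 fold change -1.20, SE 0.10, adjusted p = 4.53e-05). Klrg1, an inhibitory receptor of mature NK cells, fell from 47.6, 72.6 and 37.8 CPM to 7.56, 4.81 and 10.1 CPM (log2 fold change -2.84, SE 0.31, adjusted p = 0.000127). Cd160 was the exception, from 0.552, 0.509 and 0.400 CPM to 1.16, 1.07 and 1.08 CPM (log2 fold change 1.16, SE 0.23, adjusted p = 0.00271). On chromosome 6, 13 neighbouring tested genes of the NK gene complex, from Klre1 to Klra2 (129577905 to 131247362), were all called lower.

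The effector genes of the same cells fell together. Of 14 tested granzymes and NK effectors, 12 were called lower and 1 higher, with a median of -2.20. Prf1, the pore-forming perforin, read 416, 594 and 394 CPM at gd10.5 and 88.3, 66 and 106 CPM at gd14.5 (log2 fold change -2.43, SE 0.21, adjusted p = 4.48e-05). Gzmb, the main apoptosis-inducing granzyme, read 375, 426 and 279 CPM at gd10.5 and 48.4, 35.2 and 55.6 CPM at gd14.5 (log2 fold change -2.96, SE 0.21, adjusted p = 1.67e-05). In each case the lowest gd10.5 library was more than 3 times the highest gd14.5 library. Gzma, the tryptase of the group, fell furthest, from 12.1, 14.1 and 7.64 CPM to 0.085, 0.267 and 0.45 CPM (log2 fold change -5.49, SE 0.44, adjusted p = 3.02e-05). Gzmg, the granzyme with the highest CPM, fell from 1532, 2529 and 1603 CPM to 463, 322 and 556 CPM, and Gzmc from 799, 1197 and 759 CPM to 210.0, 142 and 235 CPM. Gzmm was called higher, from 1.84, 1.75 and 2.84 CPM to 8.36, 5.79 and 5.9 CPM (log2 fold change 1.65, SE 0.24, adjusted p = 0.000604). The 11 neighbouring tested genes from Mcpt8 to Gzmb on chromosome 14 (56082166 to 56262260) were all called lower. The summed level of the list was 8710, 13700 and 8390 CPM at gd10.5 and 3460, 2990 and 3960 CPM at gd14.5.

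Other immune lists were mixed. Of 16 tested macrophage genes, 4 were called lower and none higher, while their summed level was 831, 728 and 698 CPM at gd10.5 and 888, 1020 and 958 CPM at gd14.5, higher in every gd14.5 library. The largest fall was that of Tyrobp, an adaptor that NK cells share with myeloid cells, from 30.2, 46.2 and 26 CPM to 7.45, 5.58 and 6.44 CPM (log2 fold change -2.40, SE 0.22, adjusted p = 5.97e-05). Without the fold limit, 8 of the macrophage genes had negative and 2 positive changes at an adjusted p under 0.05. The median log2 fold change of the list was -0.63, and that of Adgre1 was -0.67. The 2 with positive changes were Cd68 (log2 fold change 0.72, SE 0.076, adjusted p = 0.000118) and Csf1r (log2 fold change 0.48, SE 0.13, adjusted p = 0.0124), both under the fold limit. Antigen presentation had 6 of 16 called lower and none higher, and interferon-stimulated genes had 4 of 18 called lower and 1 higher. Of 7 tested neutrophil genes, 2 were called lower and 1 higher, with a median log2 fold change of 0.03. S100a8, a calprotectin subunit, fell from 105, 173 and 80.2 CPM to 28.4, 23.6 and 28.1 CPM (log2 fold change -2.16, SE 0.26, adjusted p = 0.000202). Its partner subunit S100a9 read 1.84, 1.5 and 1.2 CPM at gd10.5 and 2.35, 2.08 and 2.48 CPM at gd14.5 (log2 fold change 0.60, SE 0.21, adjusted p = 0.0368), under the fold limit, and the collagenase Mmp8 was called higher (log2 fold change 1.45, SE 0.51, adjusted p = 0.0393) at levels below 1 CPM. Among 14 tested chemokines, 5 were called lower and 2 higher, and the CXC chemokines with the largest changes went opposite ways. Cxcl14 fell from 716, 1065 and 720.0 CPM to 114, 102 and 107 CPM (log2 fold change -2.96, SE 0.17, adjusted p = 6.37e-06). Cxcl12 rose from 5.41, 3.62 and 5.47 CPM to 144, 154 and 141 CPM (log2 fold change 4.94, SE 0.15, adjusted p = 3.69e-07).

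Complement genes were called lower in 7 of 16 cases and higher in none. Serping1, the C1 inhibitor, fell from 614, 814 and 593 CPM to 356, 313 and 308 CPM (log2 fold change -1.05, SE 0.13, adjusted p = 0.000288). C3, the component on which all pathways meet, read 13.2, 27.6 and 11 CPM at gd10.5 and 3.23, 4.51 and 9.41 CPM at gd14.5 (log2 fold change -1.63, SE 0.45, adjusted p = 0.0148). The C3 libraries did not overlap, but the call was lost without WT gd14.5 replicate 1 (adjusted p = 0.0544) or replicate 2 (adjusted p = 0.0647).

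Of 18 tested genes of steroid synthesis and inactivation, 9 were called lower and none higher, with a median log2 fold change of -1.53. Star, which delivers cholesterol to the inner mitochondrial membrane, fell from 748, 495 and 569 CPM to 56.4, 54.4 and 69.7 CPM (log2 fold change -3.33, SE 0.17, adjusted p = 4.82e-06). Cyp11a1, the side-chain cleavage enzyme, fell from 812, 801 and 671 CPM to 255, 273 and 251 CPM (log2 fold change -1.55, SE 0.098, adjusted p = 1.05e-05). Hsd3b6, the dehydrogenase that makes progesterone in giant cells, fell further, from 223, 152 and 171 CPM to 7.59, 6.56 and 7.39 CPM (log2 fold change -4.66, SE 0.16, adjusted p = 5.48e-07). Enzymes that inactivate or reduce progesterone fell too. Akr1c18, the 20-alpha-hydroxysteroid dehydrogenase, read 90.7, 219 and 63.1 CPM at gd10.5 and 4.7, 4.33 and 4.73 CPM at gd14.5 (log2 fold change -4.77, SE 0.47, adjusted p = 8.46e-05), and Srd5a1, a steroid reductase, went from 445, 412 and 437 CPM to 111, 95.4 and 105 CPM. Synthesis of cholesterol, the substrate of these enzymes, had 11 of 22 tested genes called lower and none higher. Dhcr7 fell from 82.1, 59.2 and 68.2 CPM to 11.2, 12.7 and 12.9 CPM (log2 fold change -2.51, SE 0.13, adjusted p = 4.44e-06), and Hmgcs1 from 147, 149 and 153 CPM to 54.1, 53.6 and 65.5 CPM.

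Cell division genes fell as a block. Of 24 tested mitotic genes, 23 were called lower and none higher (median -1.51), and of 24 replication genes, 19 were called lower and none higher (median -1.24). Mki67, the proliferation antigen, went from 174, 164 and 219 CPM to 66.8, 50.4 and 58.7 CPM (log2 fold change -1.66, SE 0.14, adjusted p = 3.66e-05). Cdk1, the mitotic kinase, went from 76.5, 71.2 and 82.6 CPM to 27.9, 17.6 and 24.9 CPM (log2 fold change -1.71, SE 0.16, adjusted p = 5.58e-05). Within the replication list, Rrm2, a ribonucleotide reductase subunit, had the highest CPM and the largest fall of the list, from 1335, 1493 and 1186 CPM to 227, 212 and 208 CPM (log2 fold change -2.63, SE 0.11, adjusted p = 1.46e-06). For mitotic genes, WT gd14.5 replicate 2 was the lowest library for Mki67, Top2a and Cdk1. Top2a, a DNA topoisomerase, read 166, 142 and 192 CPM at gd10.5 and 70.6, 45.2 and 61.7 CPM at gd14.5.

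Of 25 tested genes of folding and secretion in the endoplasmic reticulum, 4 were called higher (16%, against 10.1% of all genes) and none lower, with a median log2 fold change of 0.56, and none was called in KO. The chaperone Hspa5 went from 1432, 1432 and 1560.2 CPM to 2865, 3198 and 3377 CPM (log2 fold change 1.09, SE 0.099, adjusted p = 5.43e-05), and Hsp90b1 from 1238, 1213 and 1224 CPM to 2467, 2582 and 2917 CPM (log2 fold change 1.12, SE 0.095, adjusted p = 4.07e-05). None of 26 respiratory chain subunits was called. Of these, 15 had negative changes at an adjusted p under 0.05 and none had a positive one (median log2 fold change -0.28). None of the 13 listed protein-coding transcripts of the mitochondrial genome was called. Over all 25 tested genes of that genome, 6 were called lower (24%, against 11.7% of all genes) and none higher. Ribosomal protein genes had 4 of 24 called lower and none higher (median -0.79). Without the fold limit, 23 had negative changes at an adjusted p under 0.05 and none had a positive one. However, many have processed pseudogenes of near-identical sequence (Rps2 is 99.5% identical to Rps2-ps10 over 926 bases), and their levels here are what remained after reads with several alignments were left out.

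**Figure D3:**
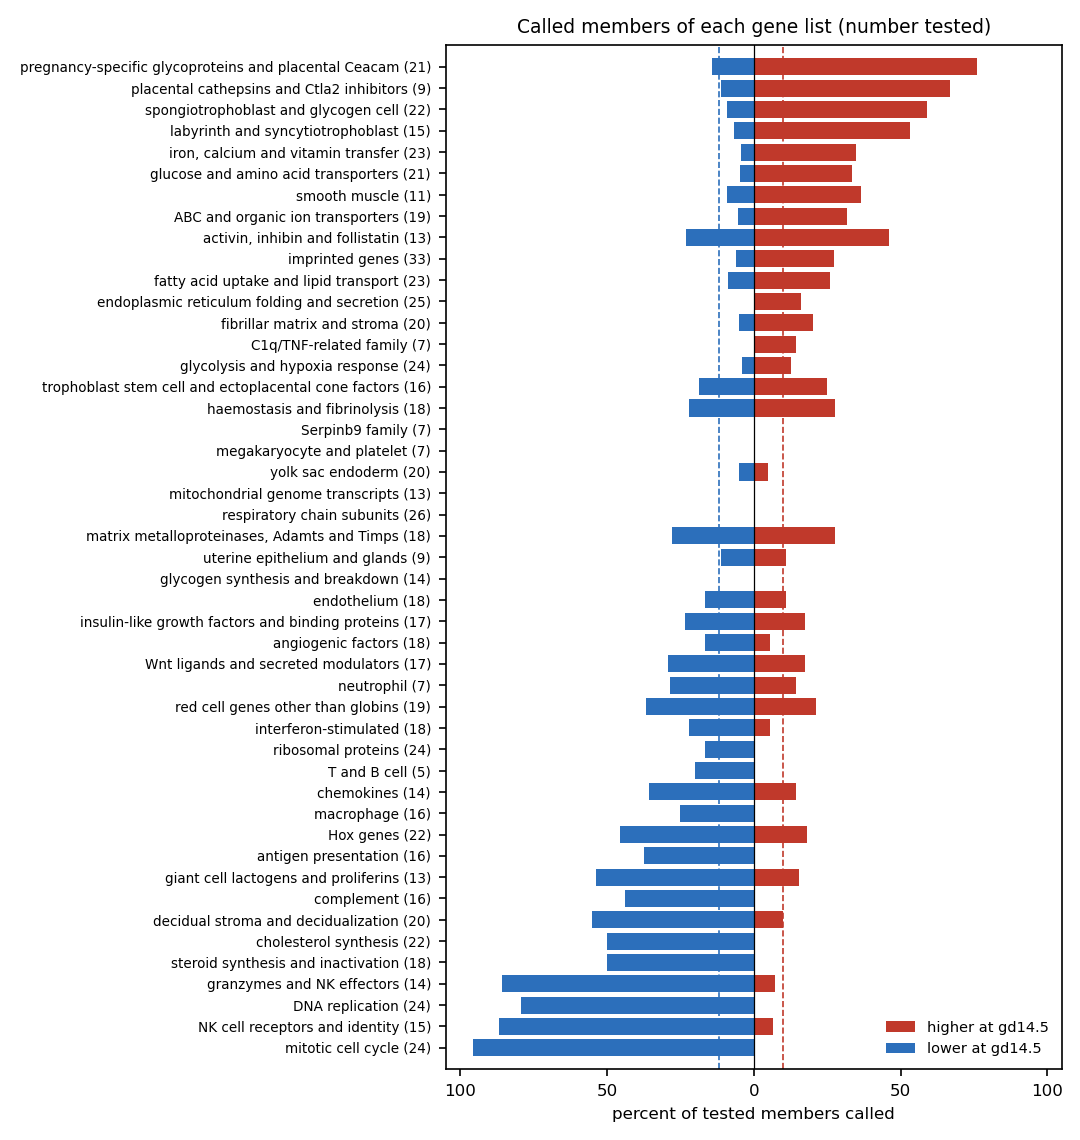
For each gene list with at least 5 members tested (number in brackets), the bars give the percent of tested members called higher (red, right) or lower (blue, left) at gd14.5; dashed lines mark the share of all genes tested, 10.1% higher and 11.7% lower. Psg/Ceacam, cathepsin, junctional zone and labyrinth lists extend furthest to the right, and mitotic, NK cell, replication and granzyme lists furthest to the left.

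Embryonic globin genes were in part lower and adult globin genes higher. Hbb-bh1, an embryonic beta-like chain of primitive red cells, read 267, 395 and 334 CPM at gd10.5 and 5.78, 3.8 and 4.91 CPM at gd14.5 (log2 fold change -6.10, SE 0.21, adjusted p = 5.48e-07). Hba-x, the embryonic alpha-like chain whose upstream sequence is given above, read 271, 341 and 325 CPM at gd10.5 and 71, 51.1 and 70.7 CPM at gd14.5 (log2 fold change -2.28, SE 0.15, adjusted p = 1.17e-05). Hbb-y, the other major embryonic beta-like chain, read 466, 710.3 and 609 CPM at gd10.5 and 817, 502 and 666 CPM at gd14.5 and was not called (log2 fold change 0.15, SE 0.20, adjusted p = 0.542). The stages were thus separate for Hbb-bh1 and overlapped for Hbb-y. Hbb-bh0, a further embryonic chain at a low level, was called higher, from 0, 0.17 and 0.0444 CPM to 0.482, 0.356 and 0.36 CPM (log2 fold change 2.26, SE 0.67, adjusted p = 0.0181). All 4 adult chains were called higher. Hbb-bs, an adult beta chain, went from 484, 639.8 and 375 CPM to 1786, 1937 and 1771 CPM (log2 fold change 1.87, SE 0.18, adjusted p = 7.12e-05), and Hba-a1 from 258, 337 and 238 CPM to 809, 826 and 834 CPM (log2 fold change 1.57, SE 0.13, adjusted p = 3.79e-05). Hba-a1 and Hba-a2 are 99.8% identical over 538 bases, and the split of reads between them is uncertain. Of 19 tested red cell genes other than globins, 7 were called lower and 4 higher. Slc4a1, the anion exchanger of the red cell membrane, fell from 36.6, 44.6 and 45 CPM to 14.3, 19.4 and 15.7 CPM (log2 fold change -1.35, SE 0.13, adjusted p = 7.45e-05), while Alas2, the first enzyme of haem synthesis in red cells, was not called and read 46.5, 49.4 and 36.4 CPM at gd10.5 and 55.2, 57.9 and 59 CPM at gd14.5.

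In WT, the comparison of yolk sac endoderm genes depended on a single library. Their summed level was 5270, 103 and 124 CPM at gd10.5 and 549, 689 and 569 CPM at gd14.5. WT gd10.5 replicate 1 was thus far above the other WT libraries of both stages, and the other WT gd10.5 libraries lay below every gd14.5 library. The 3 KO gd10.5 libraries held 3030, 1750 and 4890 CPM (24-library scale, on which WT gd10.5 replicate 1 held 4920 CPM), so that 4 of the 6 gd10.5 libraries were high, and in KO 13 members were called lower. Afp, alpha-fetoprotein, read 2364, 6.98 and 9.91 CPM at gd10.5 and 38.5, 80.3 and 69 CPM at gd14.5 (log2 fold change -3.67, adjusted p = 0.121). Apob, the main apolipoprotein secreted by this endoderm, read 945, 3.11 and 5.16 CPM at gd10.5 and 16.1, 31.9 and 27.1 CPM at gd14.5 (log2 fold change -3.67, adjusted p = 0.109). Of 20 tested members, 1 was called higher and 1 lower with all 6 libraries, and without WT gd10.5 replicate 1, 17 were called higher and 1 lower. Without WT gd10.5 replicate 2, 12 were called lower, and without replicate 3, 9. Without replicate 1 the median log2 fold change of the list turned from -2.95 to 2.06, and that of Afp to 2.89 (adjusted p = 8.96e-05). Over all genes, 2116 were called higher and 2178 lower without it. Among genes listed as markers of other tissues, Foxa2 of uterine glands read 3.82, 0.367 and 0.578 CPM at gd10.5 and 1.3, 2.2 and 2.21 CPM at gd14.5. Its highest value was thus also in WT gd10.5 replicate 1, the library rich in yolk sac endoderm genes. Wnt7a of the luminal epithelium was too low to test, and the muscle and neural factors Myod1 and Neurod1 of the embryo proper had 3 counts or fewer in every WT library. Of the embryo list, 3 of 12 members could be tested and 2 were called higher, the tubulin gene Tubb3 from 24.7, 19.2 and 28.1 CPM to 64.9, 82.4 and 69.4 CPM (log2 fold change 1.59, SE 0.15, adjusted p = 5.76e-05) and Myl7, an atrial myosin chain, from 0.405, 0.226 and 0.444 CPM to 1.42, 1.16 and 1.26 CPM (log2 fold change 1.87, SE 0.29, adjusted p = 0.000796).

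Matrix and vessel genes were mixed. Of 20 tested fibrillar matrix genes, 4 were called higher and 1 lower. Fbln1, a fibulin, rose from 26.6, 19.3 and 23.2 CPM to 184, 299.7 and 257 CPM (log2 fold change 3.42, SE 0.20, adjusted p = 7.10e-06), Lum, the proteoglycan lumican, from 73.3, 57.8 and 27.2 CPM to 573, 521 and 571 CPM, and Fbn1, fibrillin 1, fell from 239, 269.7 and 239 CPM to 40.0, 45.4 and 35.7 CPM (log2 fold change -2.62, SE 0.10, adjusted p = 1.23e-06), with 20.1% of its exonic bases in another gene. Col1a1 read 218, 33.9 and 66 CPM at gd10.5 and 85.4, 105 and 93.5 CPM at gd14.5 and was not called, with its highest value in the library rich in yolk sac endoderm genes. Smooth muscle had 4 of 11 tested genes called higher and 1 lower, with Myh11, the heavy chain of smooth muscle myosin, going from 1.77, 1.87 and 2.84 CPM to 13.5, 16.7 and 15.1 CPM (log2 fold change 2.82, SE 0.20, adjusted p = 1.78e-05) and the intermediate filament gene Des falling from 1258, 1479 and 1018 CPM to 615, 571 and 555 CPM (log2 fold change -1.11, SE 0.14, adjusted p = 0.000241). Of 18 tested endothelial genes, 2 were called higher and 3 lower, with a median log2 fold change of -0.24. Flt1, the receptor VEGFR1, whose soluble form is made by spongiotrophoblast, had the largest rise, from 203, 191 and 274 CPM to 1896, 2695 and 2431 CPM (log2 fold change 3.40, SE 0.19, adjusted p = 5.91e-06). The nitric oxide synthase Nos3, 32.3% of whose exonic bases lie in another gene, was called lower (log2 fold change -1.56, SE 0.17, adjusted p = 0.000145), and the endothelial adhesion genes Pecam1 (log2 fold change -0.78, SE 0.12, adjusted p = 0.000887) and Cdh5 (log2 fold change -0.52, SE 0.084, adjusted p = 0.00101) had negative changes under the fold limit. Angpt2, which destabilises vessels, fell from 734, 758 and 518 CPM to 148, 127 and 128 CPM (log2 fold change -2.32, SE 0.15, adjusted p = 1.31e-05). Matrix metalloproteinases, Adamts proteases and Timps had 5 of 18 called higher and 5 lower, led by Mmp12 (2.65, 2.18 and 1.96 CPM to 19.9, 25.8 and 19.4 CPM) and Mmp9 (13.1, 8.11 and 18.7 CPM to 1.1, 1.51 and 2.12 CPM).

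Growth factor and coagulation genes held changes in both directions. Igf1 fell from 24.1, 26.8 and 21.7 CPM to 3.51, 3.26 and 3.83 CPM (log2 fold change -2.78, SE 0.12, adjusted p = 2.22e-06), and Pappa2, a protease that cleaves IGF-binding proteins, rose from 229, 237 and 373 CPM to 2591, 3732 and 3218 CPM (log2 fold change 3.51, SE 0.23, adjusted p = 1.23e-05). Activin subunit genes rose, Inhba from 69.2, 94.8 and 47.2 CPM to 376, 347 and 330.1 CPM (log2 fold change 2.32, SE 0.22, adjusted p = 6.95e-05) and Inhbb from 63.4, 64.8 and 48.9 CPM to 203, 279.8 and 248 CPM. Fst, follistatin, which binds activin, fell from 77, 75.6 and 57.5 CPM to 8.5, 18.2 and 30.3 CPM, with the gd14.5 libraries spread over a wide range. Among 18 haemostasis genes, 5 were called higher and 4 lower. Tfpi, the tissue factor pathway inhibitor, fell from 6472, 4971 and 4209.8 CPM to 1095, 951 and 955 CPM (log2 fold change -2.38, SE 0.17, adjusted p = 1.70e-05), and its relative Tfpi2 rose from 264, 452 and 175 CPM to 1118, 1293 and 899 CPM (log2 fold change 1.89, SE 0.31, adjusted p = 0.00118). Imprinted genes had 9 of 33 tested members called higher and 2 lower. Zim1 rose from 45.2, 37.4 and 61.8 CPM to 259, 265 and 244 CPM (log2 fold change 2.41, SE 0.17, adjusted p = 1.65e-05), and Phlda2, a growth-restraining imprinted gene, fell from 48.1, 33.3 and 59.9 CPM to 10.9, 7.57 and 8.33 CPM (log2 fold change -2.39, SE 0.23, adjusted p = 6.57e-05). H19, the imprinted non-coding RNA, was abundant at both stages with 7331, 5836 and 7214 CPM at gd10.5 and 7982, 7195 and 7746 CPM at gd14.5, and was not called.

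C1qtnf6 itself read 160.4, 164 and 177 CPM at gd10.5 and 117, 131 and 139 CPM at gd14.5. Its adjusted p was under 0.05 (log2 fold change -0.37, SE 0.083, adjusted p = 0.00514) but its change was under the fold limit, and a fit of all 24 libraries gave an adjusted p of 0.172. C1qtnf3 was the sole called gene of the 7 tested members of its family and rose from 0.147, 0.17 and 0.0444 CPM (4, 6 and 1 counts) to 4.59, 4.6 and 6.67 CPM (adjusted p = 1.19e-05).

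Scaled over all 24 libraries, Y-linked transcripts summed to 0.0688, 0.054 and 0.254 CPM at gd10.5 and to 1.37, 0.663 and 168 CPM at gd14.5. The levels of single genes that follow are scaled over the 6 WT libraries. Ddx3y, a Y-linked RNA helicase, read 0, 0.0565 and 0.178 CPM at gd10.5 and 0.907, 0.445 and 98.6 CPM at gd14.5 and was called higher (adjusted p = 0.0217), with its high value in WT gd14.5 replicate 3 alone, and 6 alternatives lost the call, with an adjusted p of up to 0.382, among them the fits without WT gd10.5 replicate 2 or replicate 3. Without WT gd14.5 replicate 3 its fitted log2 fold change was 3.19 in place of 8.77. Xist, the RNA of X inactivation, read 1248, 1373 and 1433 CPM at gd10.5 and 1906, 1845 and 177 CPM at gd14.5, with the same library lowest. X-linked genes were called higher in 99 of 665 cases (14.9%) and lower in 65 (9.77%), against 10.1% and 11.7% over all genes. The part of fetal sex in this was not tested.

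KO mice were sampled at the same stages, with no library shared with the WT comparison. In KO, 1252 of 17657 tested genes were higher at gd14.5 (7.09%) and 1684 lower (9.54%). Of the genes higher in WT, 1083 were called the same way in KO (59.3% of the WT calls and 86.5% of the KO calls), and of those lower in WT, 1348 (63.4% and 80%), with none called the opposite way. The shares of WT calls include genes not tested in KO. Of the 1825 higher in WT, 1729 were tested in KO, and 1722 had the same sign there. Of the 2127 lower in WT, 1899 were tested and 1893 had the same sign. Across the 17416 genes tested in both, the log2 fold changes had a Pearson r of 0.939, given as a description because genes are not independent. No gene of 18612 passed an adjusted p of 0.05 for the stage by genotype interaction (0%) in edgeR, with 386 at an unadjusted p under 0.05, while DESeq2 called 2.

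The counts in KO moved with each library left out. Without KO gd10.5 replicate 2, 2184 genes were called higher in KO, and leaving out each of the other 5 in turn gave 546 to 800. KO gd10.5 replicate 2 lay at 49.3% of the way from the WT gd10.5 mean to the WT gd14.5 mean over the 3952 genes called in WT, whereas the other KO gd10.5 libraries lay at -7.65% and -10.9%. The Psg/Ceacam list summed to 2590, 10300 and 1710 CPM in KO gd10.5 replicates 1, 2 and 3, and the decidual list to 5400, 3420 and 13600 CPM. Tpbpa in these libraries read 781, 10140 and 645 CPM. Without this library, 2528 genes were called lower in KO and 12 genes passed the interaction test, which 56 genes passed without WT gd10.5 replicate 1 and 1 without WT gd10.5 replicate 2. Prl8a8 rose by a log2 fold change of 5.68 in KO with all 6 libraries, against 8.99 in WT. For genes that fell, the KO log2 fold changes were -6.30 for Prl3d1, -6.30 for Hbb-bh1 and -6.12 for Gzma. Fewer members of trophoblast lists were called higher in KO than in WT. They were 4 against 16 for Psg/Ceacam, 8 against 13 for the junctional zone and 2 against 6 for placental cathepsins. Prl7a2, Prl8a9 and Prl2b1 had positive changes in KO but were not called. Called falls were 12 in both for granzymes and NK effectors, 24 against 23 for mitotic genes and 10 against 13 for NK receptors.

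**Figure D4:**
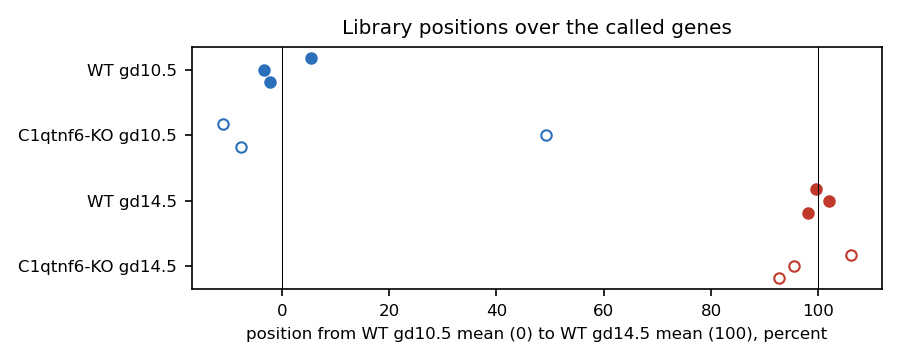
Each circle is 1 library at gd10.5 (blue) or gd14.5 (red), filled for WT and open for KO, placed along the line from the WT gd10.5 mean (0) to the WT gd14.5 mean (100 percent) over the 3952 genes called in WT. WT libraries define the line, so only the KO positions carry information; KO gd10.5 replicate 2 lies at 49.3%.

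Levels at the later WT stages are set beside those at gd14.5. These stages were scaled with all 24 libraries and share the gd14.5 libraries with the comparison above, so that levels are set side by side and not tested. Prl3b1 stood at 10058 ± 322 CPM (mean ± SD, n = 3) at gd14.5, 13899.7 ± 2385 CPM at gd16.5 and 15013 ± 2396 CPM at gd19.5. Ctsq had higher means at each stage, with 2309 ± 252 CPM, 6546 ± 1341 CPM and 10974 ± 1026 CPM in the same order. Prl8a6 behaved alike, with 712 ± 114 CPM, 3781 ± 953 CPM and 8331 ± 2039 CPM. Tpbpa and Prl8a8 were already near their highest level at gd14.5, Tpbpa with 20460.3 ± 962 CPM and then 16331 ± 2544 CPM at gd19.5. Gzmb had lower means at each stage, from 43.2 ± 9.71 CPM to 15.6 ± 2.19 CPM and 6.82 ± 0.791 CPM. Hbb-y, level between gd10.5 and gd14.5, was at 617 ± 146 CPM at gd14.5 and at 9.72 ± 3.00 CPM at gd16.5. Cyp17a1, a steroid hydroxylase and lyase, had its lowest mean at gd14.5 with 33.4 ± 2.04 CPM and then stood at 53.2 ± 8.71 CPM and 117 ± 10.3 CPM.

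**Figure D5:**
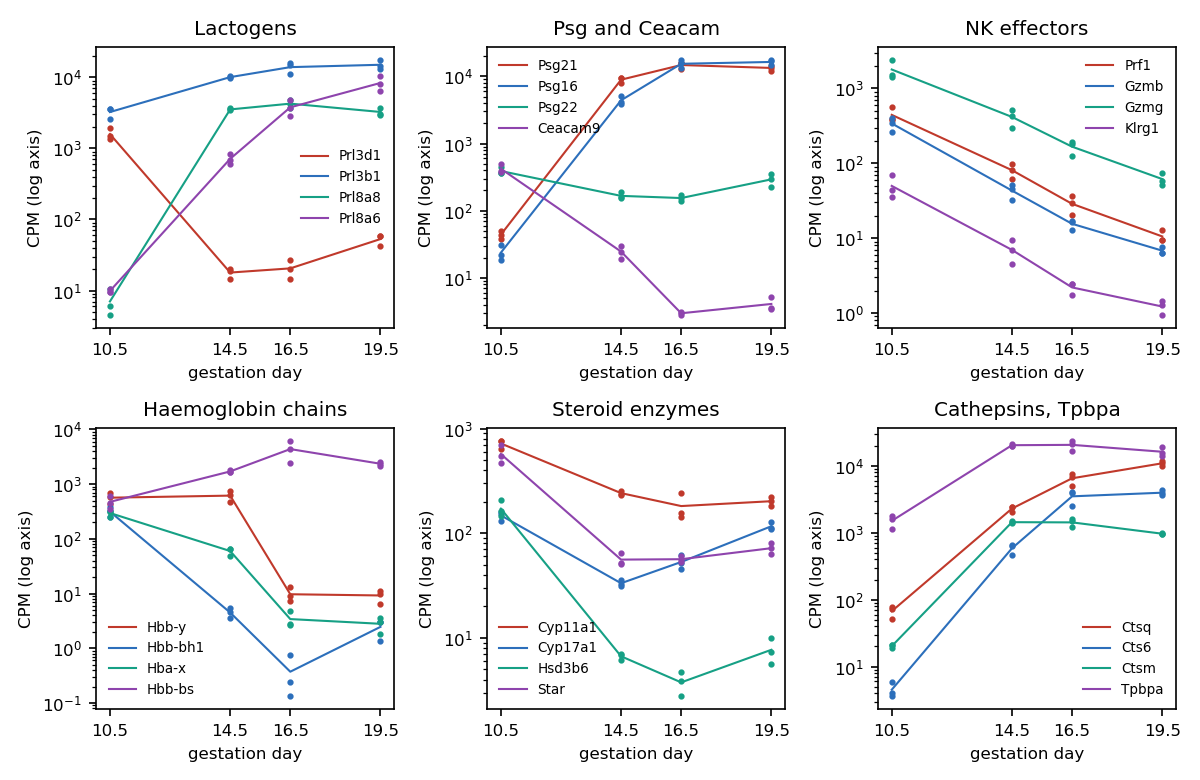
CPM (log axis, scaled over 24 libraries) of 24 genes in the WT libraries of the 4 stages; points are libraries and lines join the means of 3. Prl3d1 falls and Prl8a8 rises steeply before gd14.5, whereas Hbb-y stays level until gd14.5 and is 9.72 CPM on average at gd16.5.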

How the data were processed

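RNA of the MFI was sequenced from stranded mRNA libraries as pairs of reads. Per the study's methods and the submitters' processing notes, the authors trimmed reads with Trim Galore 0.6.4, aligned them to GRCm38 with STAR 2.7.3a and counted them per gene with featureCounts of Subread 2.0.0 at default settings, which use no strand and leave out reads with several alignments or overlapping several genes. The authors deposited raw counts per gene for 24 libraries. The members and gene lists were chosen with earlier results of these data known.

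The 6 WT libraries at gd10.5 and gd14.5 entered a quasi-likelihood fit (edgeR 4.0.16, R 4.3.3) with TMM factors and filterByExpr (minimum count 10, minimum total count 15). Calls were made at the thresholds given above, with p adjusted after Benjamini and Hochberg. Fold changes in the text are 2 to the power of the fitted log2 value, and a gene with 3 counts or fewer in every library of a stage was given a bound. KO libraries and the interaction were fitted in the same way. On simulated counts for this comparison (17818 genes in the step), 186 of 198 genes changed by a log2 of 2 were recovered (93.9%), with 11 false calls. The simulation changed few genes, up and down alike. Recovery and false calls with as many changed genes as in the data were not tested.

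Genes named are the 12 called genes with the largest rise and the 12 with the largest fall (libraries separate, mean of at least 50 CPM in the higher stage), C1qtnf6 and, in each list, the first 3 written, the 2 most abundant and the largest called rise and fall. Cyp17a1, Dio3, Fst, Gjb2, Gzmc, Hoxa13, Hoxd10, Hoxd13, Klrg1, Krt84, Lum, Mt1, Mt2, Prl2b1, Prl7a2, Prl8a6, Prl8a9, Psg22, Slc7a2, Srd5a1 and Tfpi2, members of runs and genes without values were chosen after their values were seen. Some genes that the rule takes are not reported here. Identity between transcripts was computed with BLAST, and upstream sequences are from RefSeq. Alternatives were DESeq2 1.42.0, voom of limma 3.58.1, other size factors, filters and sets of libraries, and, chosen after seeing the data, bias-adjusted and robust edgeR fits. The smallest chi-square per degree of freedom between replicates was 9.3, so no library was a repeat of another. Gene Ontology terms were not used here.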

Additional observations from a re-analysis of the deposited data

How the results depend on the processing

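The counts of genes higher (1825) and lower (2127) stayed within 1.5 times under other size factors, filters, tools and library sets, at 1223 to 2263 higher and 1527 to 2734 lower. They were 4960 and 5007 with no fold-change limit, and 1004 and 1083 when tested by glmTreat against a log2 fold change of 1. Leaving out each WT library in turn gave 1743 to 2116 higher and 2015 to 2404 lower. In KO, leaving out each library gave 546 to 2184 higher and 653 to 2528 lower, with the higher count at 546 to 800 in each of these fits but the one without KO gd10.5 replicate 2, and the interaction gave 0 to 56 genes (56 without WT gd10.5 replicate 1) and 2 by DESeq2. Of 5247 alternative values of named genes, 56 over 24 genes had the other sign, 6 of them with an adjusted p under 0.05. These 6 came from leaving out 1 WT library, over which the log2 fold change ran from -4.25 to 2.89 for Afp, -4.22 to 2.7 for Apoa1, -4.26 to 2.61 for Apob, -0.60 to 0.91 for Col1a1 and -4.46 to 2.02 for Ttr, each positive only without WT gd10.5 replicate 1, and from -0.41 to 0.48 for Xist, positive only without WT gd14.5 replicate 3. The cause was not tested. Of all values for named genes under the alternatives, 111 lost and 54 gained the threshold.

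Labels give both stages replicate numbers 1 to 3, but same-numbered libraries did not deviate together (correlations -0.13, -0.072 and 0.023). With the replicate number as a block 1855 genes were higher and 2072 lower, and in KO 1110 were lower. Depth limits genes with few counts, and 63 genes called higher and 61 called lower had 3 counts or fewer in every library of the lower stage.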

Other observations

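Metallothionein genes, whose proteins bind zinc and copper, fell as neighbours. The 5 consecutive tested genes Mt4, Mt3, Gm45774, Mt2 and Mt1 on chromosome 8 (94137197 to 94180327, GRCm38) were all called lower at gd14.5. Mt1 went from 610.0, 629 and 421 CPM to 261, 237 and 255 CPM (log2 fold change -1.14, SE 0.15, adjusted p = 0.00032), and Mt2 from 3.82, 3.53 and 3.42 CPM to 1.3, 1.51 and 1.53 CPM (log2 fold change -1.31, SE 0.16, adjusted p = 0.000264). Of the exonic bases of Mt2, 73.5% lie in Gm45774 on the opposite strand, where the counting discards reads. The level of Mt2 thus rests on the rest of its exonic bases alone, whereas Mt1 had 0 bases in another gene. Whether the counts of Mt2 and Gm45774 vary independently was not tested. Another run on chromosome 8 (40551095 to 41215156) held 6 genes called higher, Mtmr7, Gm5345, Slc7a2, Pdgfrl, Mtus1 and Fgl1, and Slc7a2, a carrier of cationic amino acids, went from 9.01, 8.42 and 14.9 CPM to 91.7, 89.3 and 78.8 CPM (log2 fold change 3.02, SE 0.20, adjusted p = 1.39e-05). Of 17 tested Wnt ligands and secreted modulators, 5 were called lower and 3 higher. The modulator Dkk2 went from 13.1, 25.5 and 9.16 CPM to 2.78, 3.35 and 2.84 CPM (log2 fold change -2.41, SE 0.35, adjusted p = 0.000617), and Dkk1 of the same family from 1.03, 0.961 and 1.33 CPM to 2.38, 3.47 and 4.05 CPM (log2 fold change 1.58, SE 0.25, adjusted p = 0.000957).

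Of 24 tested genes of glycolysis and the hypoxia response, 3 were called higher (12.5%, against 10.1% of all genes) and 1 lower (4.17%, against 11.7%). The median log2 fold change was -0.30. Without the fold limit, 13 had negative and 7 positive changes at an adjusted p under 0.05. Their summed level was 6130, 5910 and 6070 CPM at gd10.5 and 5130, 5290 and 5140 CPM at gd14.5. Slc16a3, a lactate exporter, went from 48.9, 47 and 79.1 CPM to 175, 152 and 165 CPM (log2 fold change 1.49, SE 0.19, adjusted p = 0.000277), and Pgk1, a glycolytic kinase, from 96.3, 103 and 90.1 CPM to 48.1, 43.9 and 45 CPM (log2 fold change -1.08, SE 0.075, adjusted p = 1.70e-05). None of 7 tested Serpinb9 genes, inhibitors of granzyme B or their trophoblast relatives, and none of 7 megakaryocyte and platelet genes was called.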
